A study of Homo sapiens with 9 samples.

Results

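Collagen chain genes were described across A431 p53 KO cells and their controls, A431 Ctrl (mutp53) and A431 parental (mutp53) cells. They were taken as all genes whose symbol has the form COL, a number, A and a number, which selected 44 of the 58051 genes in the count table. A431 is an epidermoid carcinoma cell line that carries endogenous mutant p53. The p53 KO cells were made in it with GFP CRISPR constructs directed at p53 and the Ctrl cells with an empty vector, while parental cells were not edited, so mutant p53 is the background of both control groups. Poly(A) RNA was sequenced in 3 libraries per group. The labels describe growth from single colonies without giving the number of clones, and do not say that the libraries of a group came from separate cultures. The p-values below therefore measure the spread between these libraries, which may be technical, and a difference between clones cannot be told apart from a difference made by the edit.

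Collagens are extracellular proteins in which 3 chains wind into a triple helix, and each chain has its own gene. Fibrillar chains form the banded fibrils of connective tissue, and fibril-associated chains sit on their surface. Type IV chains form the sheet-like network of basement membranes, on which squamous epithelial cells rest. Type VI chains assemble into beaded filaments around cells. Transmembrane collagens span the cell membrane, and type XVII collagen, the product of COL17A1, is a part of the hemidesmosome that anchors keratinocytes to the basement membrane. Type VII collagen forms the anchoring fibrils beneath it.

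Library totals lay between 19783778 and 29840452 counts, and 14513 genes passed the low-count filter. Of 8 squamous epithelial markers 7 passed the filter, and their summed level was 15264 to 18241 CPM (counts per 1000000 counts of the TMM-scaled library) in parental, 9750 to 12060 in Ctrl and 14097 to 14809 in p53 KO libraries. KRT14 did not pass, with 0 to 1 counts in parental, 1 to 3 in Ctrl and 7 to 13 in p53 KO libraries, so this defining keratin was near absent. Most of the sum was EGFR, at 14357 to 17320 CPM in parental, 8665 to 10998 in Ctrl and 13036 to 13743 in p53 KO libraries. KRT5, the partner keratin of KRT14, was present at 441 to 448 CPM in parental, 562 to 690.3 in Ctrl and 589 to 616 in p53 KO libraries. KRT6A, a keratin of activated keratinocytes, rose in p53 KO cells by log2 fold changes of 2.35 against parental (SE 0.10, edgeR adjusted p = 2.14e-07) and 2.75 against Ctrl cells (SE 0.10, adjusted p = 2.39e-08). Of the 7 markers tested, 2 were higher and 1 lower in p53 KO cells against each control. Higher beside KRT6A was KRT5 against parental cells (0.43, edgeR adjusted p = 0.00387) and EGFR against Ctrl cells (0.42, adjusted p = 0.00846). The lower one was CDH1 against both (-0.32, adjusted p = 0.0245, and -0.33, adjusted p = 0.0140). In Ctrl against parental cells 1 was higher and 3 lower. Over all genes tested, 18.1%, 29.2% and 20.3% were called in these 3 comparisons. Of 9 fibroblast markers 5 were at 0 in all 9 libraries and 2 passed, with a summed level of 3.51 to 8.58 CPM. TAGLN was one of them and fell in p53 KO and in Ctrl cells against parental cells (log2 fold changes -2.01 and -1.83). The other was ACTA2, which gave 0.17 and -0.32 there (edgeR adjusted p = 0.537 and 0.196) and was not called in any comparison. Of 5 endothelial markers 1 was at 0 and only PECAM1 passed, with a summed level of 0.421 to 1.16 CPM.

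Of the 44 collagen chain genes, 19 passed the filter. Another 14 had no count in any library, which allows up to 3 counts per library. A further 8 reached at most 3 counts, and COL16A1, COL24A1 and COL6A3 reached more but did not pass. By class, 4 of 6 basement membrane chains, 4 of 11 fibrillar, 2 of 4 transmembrane, 2 of 5 beaded filament, 3 of 10 fibril-associated, 1 of 3 short-chain network and 1 of 2 multiplexin chains passed, together with COL7A1 and COL28A1. COL1A1 passed while COL1A2, its partner in type I collagen, reached no more than 1 count.

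A gene is referred to as called where edgeR's quasi-likelihood test, adjusted over all genes tested, gave p of 0.05 or less. Against parental cells, 4 of the 19 chains were called higher and 4 lower in p53 KO cells, where 9.77% of all genes tested were higher and 8.36% lower (18.1% in all). Against Ctrl cells 9 were higher and 3 lower, where 15% and 14.2% of all genes were (29.2% in all). In Ctrl against parental cells 1 was higher and 9 lower, beside 10.6% and 9.69% of all genes (20.3% in all). The 3 comparisons share libraries and are not independent of each other. Past a log2 fold change of 1.5 in size were 2 chains against parental (1.95% of all genes), 6 against Ctrl (3.29%) and 4 in Ctrl against parental cells (1.94%). A chain that passed the filter through the group in which it is high had to differ, so these counts describe the chains and do not test them as a list. The median log2 fold changes over the 19 chains were 0.02, 0.05 and -0.38 in the same order, beside 0.00648, 0.00603 and 0.00295 over all genes.

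**Figure D1:**
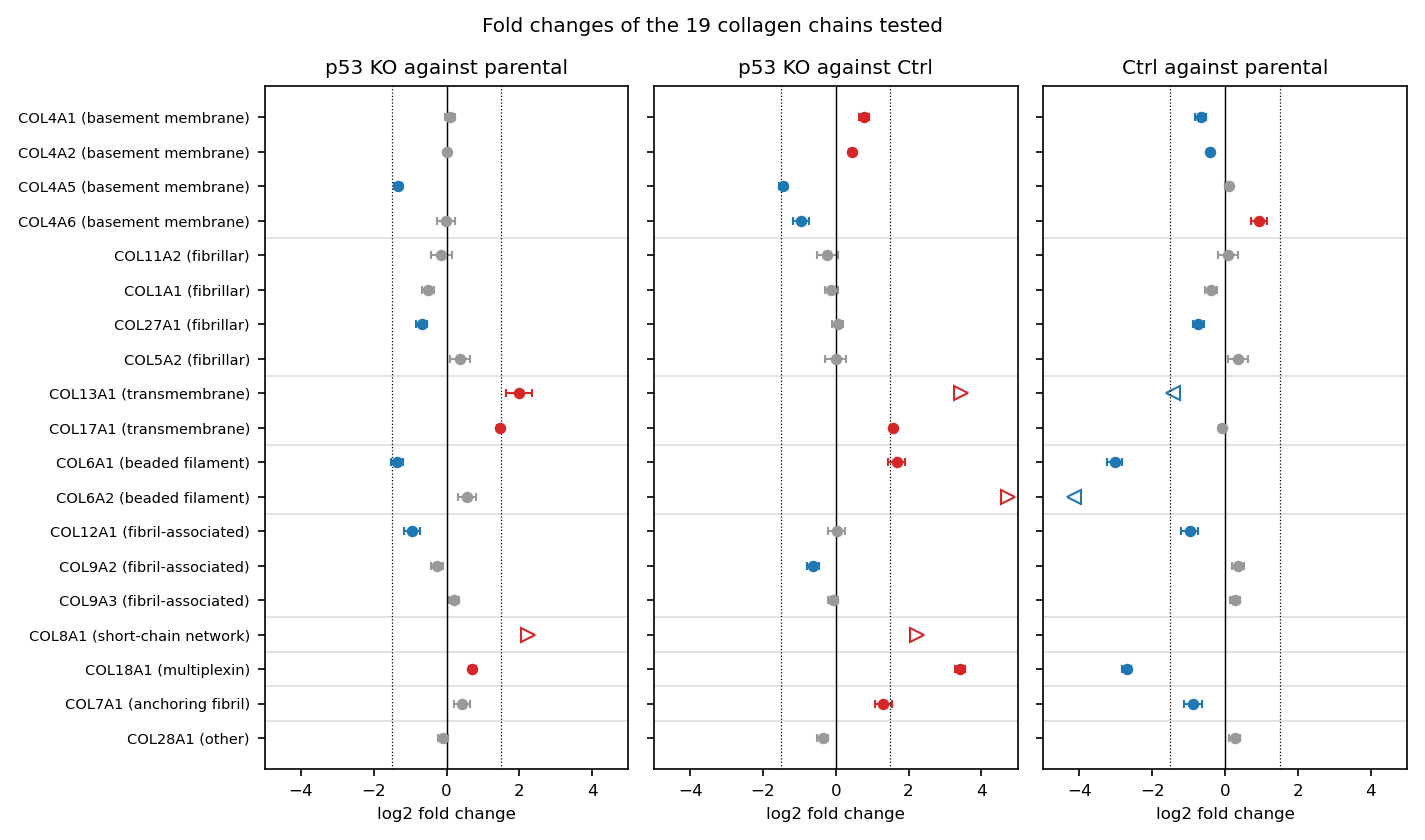
Log2 fold change of each collagen chain tested (horizontal axis, with the standard error as a bar), grouped by class, with 1 panel per comparison. Red points were called higher, blue points lower and grey points not called by edgeR, open triangles are lower bounds set against 3 counts, and dotted lines mark 1.5 and -1.5. COL8A1 has no value between the controls, where it was at 0. COL17A1 lies at 1.48 for p53 KO against parental cells, at 1.57 against Ctrl cells and at -0.09 for Ctrl against parental cells.

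The transmembrane chain COL17A1 rose in p53 KO cells against both controls. Its level was 107, 95.7 and 96.1 CPM in the parental libraries, 86.3, 92.2 and 103 in the Ctrl libraries and 275, 288 and 271 in the p53 KO libraries. All 3 p53 KO libraries lay above all 6 control libraries, and the ranges of the controls overlapped. The increase was 2.79-fold against parental (log2 fold change 1.48, SE 0.08, edgeR adjusted p = 1.98e-06) and 2.96-fold against Ctrl cells (1.57, SE 0.08, adjusted p = 4.55e-07). Between the controls the log2 fold change was -0.09 (SE 0.08, edgeR adjusted p = 0.456). COL17A1 (ENSG00000065618) lies on the minus strand at chr10:104031286-104085880 in GRCh38.

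Its promoter is shown because COL17A1 was the abundant chain that changed most against both controls. The window holds 250 bases before and 50 after the RefSeq start in GRCh38.p14, at chr10:104085831-104086130 on the minus strand, read 5′ to 3′. Capitals mark a TATA box (TATAAA) at -206, a CCAAT box (here as its reverse complement) at -101 and a p53 decamer, the consensus unit that is repeated in p53 response elements, at -55, with positions counted from the start at 0.
COL17A1: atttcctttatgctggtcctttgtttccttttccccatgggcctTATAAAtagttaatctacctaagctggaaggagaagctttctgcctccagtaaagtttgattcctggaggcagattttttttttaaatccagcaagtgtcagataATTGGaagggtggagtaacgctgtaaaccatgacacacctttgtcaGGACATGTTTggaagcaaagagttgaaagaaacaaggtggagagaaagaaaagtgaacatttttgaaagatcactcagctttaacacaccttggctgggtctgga
Both strands were searched for 5 motifs. Of 35116 RefSeq promoter windows of this length, 11.5% held TATAAA, 45.0% the GC box GGGCGG, 34.6% CCAAT, 7.71% the AP-1 site TGANTCA and 6.63% the p53 decamer. Of the 44 chains 32 had a window, and the p53 decamer was found in 1 of them, COL17A1. A match describes letters in the window and was not tested as a site.

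COL13A1, the other transmembrane chain tested, also rose, at far lower counts. It had 7, 12 and 6 counts in parental, 1, 0 and 2 in Ctrl and 51, 26 and 27 in p53 KO libraries. Each group was separate from the others, with p53 KO highest and Ctrl at or under the 3 counts taken as the limit of detection. The increase was 3.97-fold against parental cells (log2 fold change 1.99, SE 0.35, edgeR adjusted p = 0.00270) and at least 10.8-fold against Ctrl cells, set against 3 counts per library (adjusted p = 6.18e-05). COL13A1 fell at least 2.70-fold in Ctrl against parental cells (edgeR adjusted p = 0.0171), a call lost without parental replicate 2 (adjusted p = 0.0662) or Ctrl replicate 2 (adjusted p = 0.0558). The remaining transmembrane chains, COL23A1 and COL25A1, did not pass the filter. COL13A1 (ENSG00000197467) lies on the same chromosome as COL17A1, at chr10:69801880-69964275 on the plus strand. Its promoter window, chr10:69801656-69801955 on the plus strand, is shown beside that of COL17A1, and its capitals mark TATAAA at -236, the only one of the 5 motifs found there.
COL13A1: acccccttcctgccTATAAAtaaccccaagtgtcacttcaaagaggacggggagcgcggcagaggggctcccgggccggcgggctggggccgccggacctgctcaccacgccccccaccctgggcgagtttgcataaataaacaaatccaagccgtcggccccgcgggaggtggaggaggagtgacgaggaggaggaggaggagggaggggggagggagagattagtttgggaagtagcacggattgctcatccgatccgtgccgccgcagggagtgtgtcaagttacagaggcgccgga

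Tested genes within 1 Mb of each chain were examined after its values were seen. Around COL17A1, 15 of 18 neighbours were called higher and 0 lower in p53 KO against parental cells, with a median log2 fold change of 0.71 and a range of 0.19 to 1.48. Against Ctrl cells 13 were higher and 0 lower, with a median of 0.70, and in Ctrl against parental cells 2 were higher and 1 lower, with a median of 0.14. Around COL13A1, 12 of 18 neighbours were higher and 0 lower against parental cells (median 0.49) and 12 higher and 0 lower against Ctrl cells (median 0.45). The genes next to both transmembrane chains were thus mostly higher in the same libraries, where 9.77% and 15% of all genes were. Their part in the rise of COL17A1 and COL13A1 was not tested.

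**Figure D2:**
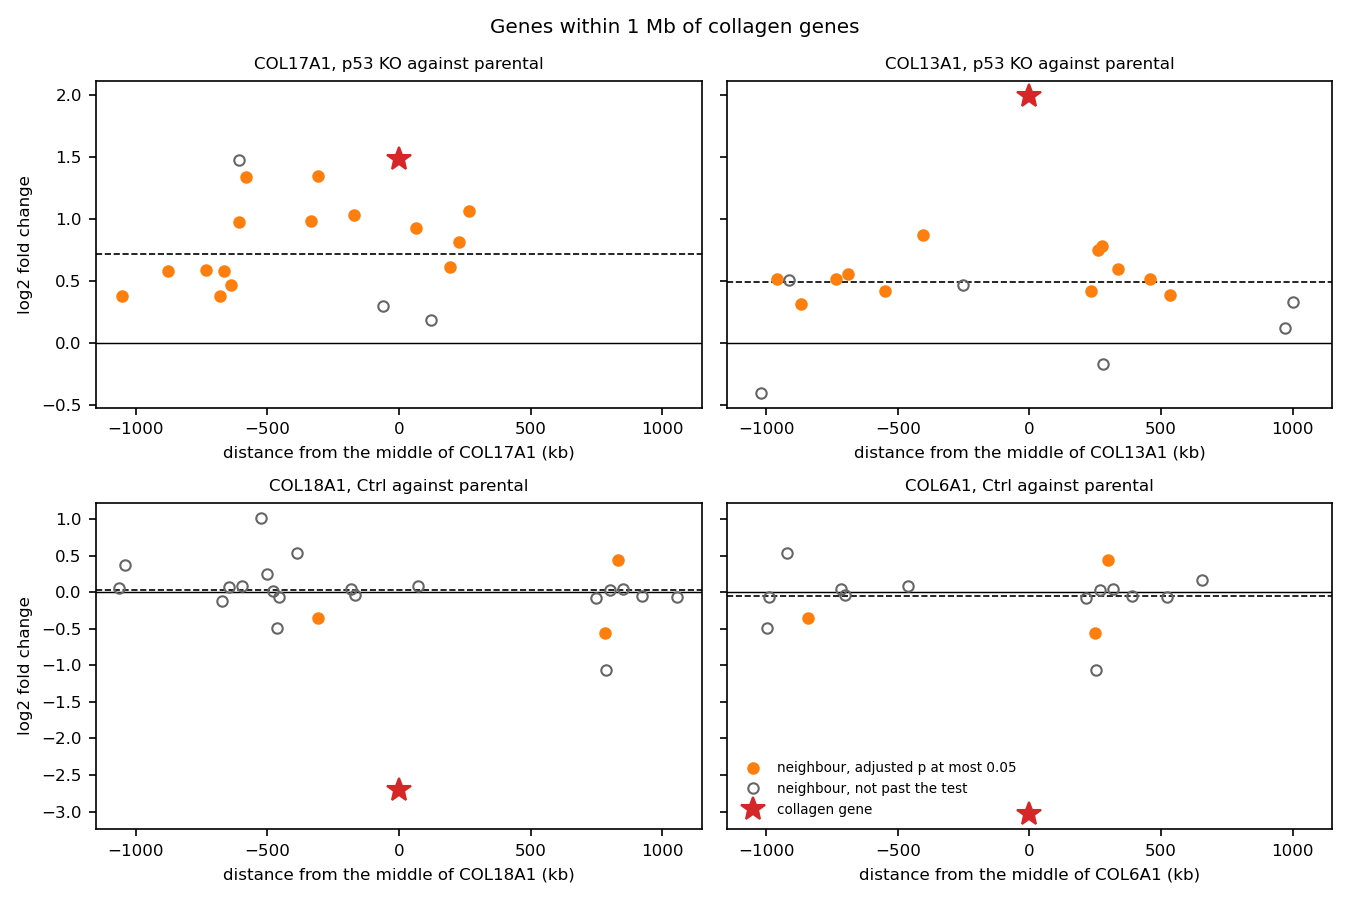
Log2 fold change of tested genes (points) against their distance in kb from a collagen chain (star) within 1 Mb, for COL17A1 and COL13A1 in p53 KO against parental cells and for COL18A1 and COL6A1 in Ctrl against parental cells. Filled points were called by edgeR and open points were not. The dashed line is the median of the neighbours, 0.71, 0.49, 0.03 and -0.05 in that order. Neighbours of the chromosome 10 chains lie mostly above 0, and those of the chromosome 21 chains lie around it.

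Of the basement membrane chains, COL4A5 fell in p53 KO cells against both controls, and the other 3 tested differed between p53 KO and Ctrl cells by a log2 fold change under 1 in size. COL4A5, an X-linked chain mutated in Alport syndrome, was at 12.7, 12.9 and 12.6 CPM in parental, 11.8, 13.5 and 16.0 in Ctrl and 5.20, 5.21 and 4.71 in p53 KO libraries. The 3 p53 KO libraries lay below all control libraries, and parental lay within the range of Ctrl. The decrease was 2.52-fold against parental (log2 fold change -1.34, SE 0.12, edgeR adjusted p = 4.65e-05) and 2.73-fold against Ctrl cells (-1.45, SE 0.12, adjusted p = 9.69e-06). Its neighbour COL4A6 was at 0.880, 1.5 and 1.01 CPM in parental, 2.19, 1.90 and 2.44 in Ctrl and 1.24, 1.03 and 1.09 in p53 KO libraries. Ctrl stood above both other groups, which overlapped. COL4A6 fell in p53 KO against Ctrl cells (log2 fold change -0.95, SE 0.22, edgeR adjusted p = 0.00690) and rose in Ctrl against parental cells (0.93, SE 0.22, adjusted p = 0.0136), while p53 KO against parental cells gave -0.01 (SE 0.24, adjusted p = 0.974). The call in Ctrl against parental cells was lost without parental replicate 1 (adjusted p = 0.0672) or 3 (adjusted p = 0.0570).

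COL4A5 and COL4A6 are read in opposite directions from neighbouring starts on the X chromosome, and differed in which group stood apart. Their promoters are shown because the pair shares this region. RefSeq starts lay 380 bases apart, and the windows, chrX:108439588-108439887 on the plus strand and chrX:108439409-108439708 on the minus strand, overlapped by 121 bases. Capitals mark CCAAT in either direction, at -247 and -239 in COL4A5 and at -145, -137 and -118 in COL4A6. None of the other 4 motifs was found in them.
COL4A5: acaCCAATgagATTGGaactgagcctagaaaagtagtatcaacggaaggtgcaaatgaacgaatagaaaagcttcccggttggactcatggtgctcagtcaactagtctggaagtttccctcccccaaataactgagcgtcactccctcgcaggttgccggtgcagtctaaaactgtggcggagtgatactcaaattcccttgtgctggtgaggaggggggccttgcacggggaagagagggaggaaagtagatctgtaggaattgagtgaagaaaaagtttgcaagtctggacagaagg
COL4A6: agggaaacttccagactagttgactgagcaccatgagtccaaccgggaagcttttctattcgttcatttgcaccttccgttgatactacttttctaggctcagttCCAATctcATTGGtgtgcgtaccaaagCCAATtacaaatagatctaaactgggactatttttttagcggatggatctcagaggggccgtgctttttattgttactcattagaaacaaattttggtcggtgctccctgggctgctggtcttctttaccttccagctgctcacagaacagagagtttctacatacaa
A further RefSeq start of COL4A6 lay 1416 bases from that of COL4A5. Per length, as CPM divided by the length in kilobases (RPKM), COL4A5 was 6.74 to 11.3 times COL4A6 in parental, 4.22 to 5.55 times in Ctrl and 3.28 to 3.97 times in p53 KO libraries. The ratio was thus highest in parental and lowest in p53 KO libraries, without overlap.

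COL4A1 and COL4A2, the chains that form the common network of basement membranes, were the most abundant pair. COL4A1 was at 124, 117 and 111 CPM in parental, 54.3, 79.7 and 85.9 in Ctrl and 130.2, 126 and 118 in p53 KO libraries. COL4A2 was at 332, 293 and 290.4 CPM in parental, 219, 231 and 234 in Ctrl and 302, 311 and 313 in p53 KO libraries. In both, Ctrl was below the other groups, whose ranges overlapped. COL4A1 was higher in p53 KO than in Ctrl cells (log2 fold change 0.76, SE 0.14, edgeR adjusted p = 0.00182) and lower in Ctrl than in parental cells (-0.67, SE 0.14, adjusted p = 0.00778). COL4A2 gave 0.44 (SE 0.07, edgeR adjusted p = 0.000727) and -0.42 (SE 0.07, adjusted p = 0.00212). Against parental cells the p53 KO values were 0.09 (SE 0.14, edgeR adjusted p = 0.692) for COL4A1 and 0.02 (SE 0.07, adjusted p = 0.885) for COL4A2. The ratio of COL4A1 to COL4A2 in RPKM was 0.531 ± 0.0355 in p53 KO, 0.505 ± 0.0174 in parental and 0.421 ± 0.0831 in Ctrl cells (SD, n = 3), and the lowest Ctrl value, 0.326, was that of replicate 1.

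COL4A1 and COL4A2 also lie head to head, on chromosome 13, and both were called lower in Ctrl cells than in either other group. The RefSeq starts lay 127 bases apart and the promoter windows overlapped by 226 bases, so 1 window is shown, that of COL4A1 at chr13:110307108-110307407 on the minus strand. Capitals mark GGGCGG or its reverse complement at -249 and -67 and CCAAT as its reverse complement at -26.
COL4A1: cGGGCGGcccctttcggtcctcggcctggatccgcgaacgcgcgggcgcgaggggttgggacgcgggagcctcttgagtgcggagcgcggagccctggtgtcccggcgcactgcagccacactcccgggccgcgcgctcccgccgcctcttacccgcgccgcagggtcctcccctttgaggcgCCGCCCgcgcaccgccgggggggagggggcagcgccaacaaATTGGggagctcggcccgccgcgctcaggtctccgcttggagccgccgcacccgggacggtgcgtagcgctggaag
In GENCODE the genes overlap by 1346 bases. The setting of the read counter for strand was not given in the sources used here, so reads in the overlap cannot be told apart. COL4A3 and COL4A4, the chains of the kidney network, had no count in any library.

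The beaded filament chains COL6A1 and COL6A2 and the multiplexin chain COL18A1, whose product is a basement membrane proteoglycan and the source of endostatin, were all lowest in Ctrl cells. COL18A1 was at 7.19, 7.85 and 8.49 CPM in parental, 1.17, 1.16 and 1.26 in Ctrl and 12.4, 12.4 and 13.7 in p53 KO libraries. The groups did not overlap, and the order was Ctrl, parental, p53 KO. COL18A1 was 10.7-fold higher in p53 KO than in Ctrl cells (log2 fold change 3.41, SE 0.13, edgeR adjusted p = 3.00e-08) and 1.64-fold higher than in parental cells (0.71, SE 0.10, adjusted p = 0.000622). It fell 6.51-fold in Ctrl against parental cells (-2.70, SE 0.13, edgeR adjusted p = 6.99e-07). COL18A1 shares 20149 bases with SLC19A1 on the opposite strand, a folate carrier gene whose log2 fold changes were 0.09, 0.17 and 0.08 in these 3 comparisons, none of them called.

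COL6A1 was at 6.31, 6.23 and 6.18 CPM in parental, 0.969, 0.773 and 0.572 in Ctrl and 2.82, 2.59 and 1.74 in p53 KO libraries. Here p53 KO libraries lay between the controls. COL6A1 fell 2.57-fold in p53 KO against parental cells (log2 fold change -1.36, SE 0.17, edgeR adjusted p = 0.000375) and was 3.19-fold higher than in Ctrl cells (1.67, SE 0.23, adjusted p = 0.000312). The direction in p53 KO cells thus turned with the control used. In Ctrl against parental cells it fell 8.20-fold (-3.04, SE 0.21, edgeR adjusted p = 7.83e-06).

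COL6A2 had 72, 56 and 38 counts in parental, 0 in each Ctrl library and 120, 63 and 70 in p53 KO libraries. The Ctrl libraries held no read of a gene that both other groups expressed. COL6A2 was at least 17.9-fold lower in Ctrl than in parental cells (edgeR adjusted p = 0.000117) and at least 26.5-fold higher in p53 KO than in Ctrl cells (adjusted p = 2.04e-05), each set against 3 counts per library. Against parental cells the p53 KO value was 0.56 (SE 0.24, edgeR adjusted p = 0.143), which passed the threshold without the low-count filter (adjusted p = 0.0403). The ratio of COL6A1 to COL6A2 in RPKM was 2.21 to 3.40 in parental and 0.482 to 1.04 in p53 KO libraries, so the chains of this pair did not keep their proportion. COL6A3, the third chain of type VI collagen, had 0 to 8 counts and did not pass the filter, and COL6A5 and COL6A6 did not pass either.

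COL18A1 (chr21:45405165-45513720), COL6A1 (chr21:45981770-46005050) and COL6A2 (chr21:46098112-46132848) lie in this order on the plus strand, 468 kb and 93.1 kb apart. Of 23 tested neighbours of COL18A1 within 1 Mb, 1 was higher and 2 lower in Ctrl against parental cells, with a median log2 fold change of 0.03. Of 16 around COL6A1, 1 was higher and 2 lower, with a median of -0.05 and a lowest value of -1.06. Of 13 around COL6A2, 1 was higher and 2 lower, with a median of -0.04. Over all genes tested, 10.6% were higher and 9.69% lower. The windows overlap and hold many of the same genes. Around both COL18A1 and COL6A1, YBEY was the higher neighbour, and ADARB1 and MCM3AP-AS1 were the lower ones. A part of the region in the low values of the 3 collagen chains was not tested. Promoters of COL18A1 and COL6A2 are shown because both genes were far lower in Ctrl than in parental cells. COL18A1 has a pair of RefSeq starts, with windows at chr21:45404915-45405214 and chr21:45455272-45455571, and COL6A2 has its window at chr21:46097862-46098161, all on the plus strand. Capitals mark GGGCGG or its reverse complement, found at 9 positions in the first COL18A1 window, at -20 in the second and at 4 positions in COL6A2, and TATAAA, at -204 in the second COL18A1 window and at -32 in COL6A2.
COL18A1, first start: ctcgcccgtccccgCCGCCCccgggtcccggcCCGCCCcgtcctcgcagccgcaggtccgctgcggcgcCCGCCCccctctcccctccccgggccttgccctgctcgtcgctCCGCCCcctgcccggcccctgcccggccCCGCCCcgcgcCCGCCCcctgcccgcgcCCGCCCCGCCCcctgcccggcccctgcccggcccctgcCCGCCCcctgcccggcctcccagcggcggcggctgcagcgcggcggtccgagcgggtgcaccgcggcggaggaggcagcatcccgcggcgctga
COL18A1, second start: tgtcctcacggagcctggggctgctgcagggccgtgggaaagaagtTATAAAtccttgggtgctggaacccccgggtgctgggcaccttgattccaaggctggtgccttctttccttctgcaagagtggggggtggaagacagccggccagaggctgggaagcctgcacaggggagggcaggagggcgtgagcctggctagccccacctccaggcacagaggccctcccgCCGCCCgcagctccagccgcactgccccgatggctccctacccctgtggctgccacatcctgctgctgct
COL6A2: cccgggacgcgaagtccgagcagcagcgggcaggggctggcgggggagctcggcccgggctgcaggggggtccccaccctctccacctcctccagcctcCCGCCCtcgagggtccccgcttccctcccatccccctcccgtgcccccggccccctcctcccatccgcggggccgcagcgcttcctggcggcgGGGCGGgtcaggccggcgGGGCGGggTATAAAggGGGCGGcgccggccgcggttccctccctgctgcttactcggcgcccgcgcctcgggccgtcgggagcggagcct

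**Figure D3:**
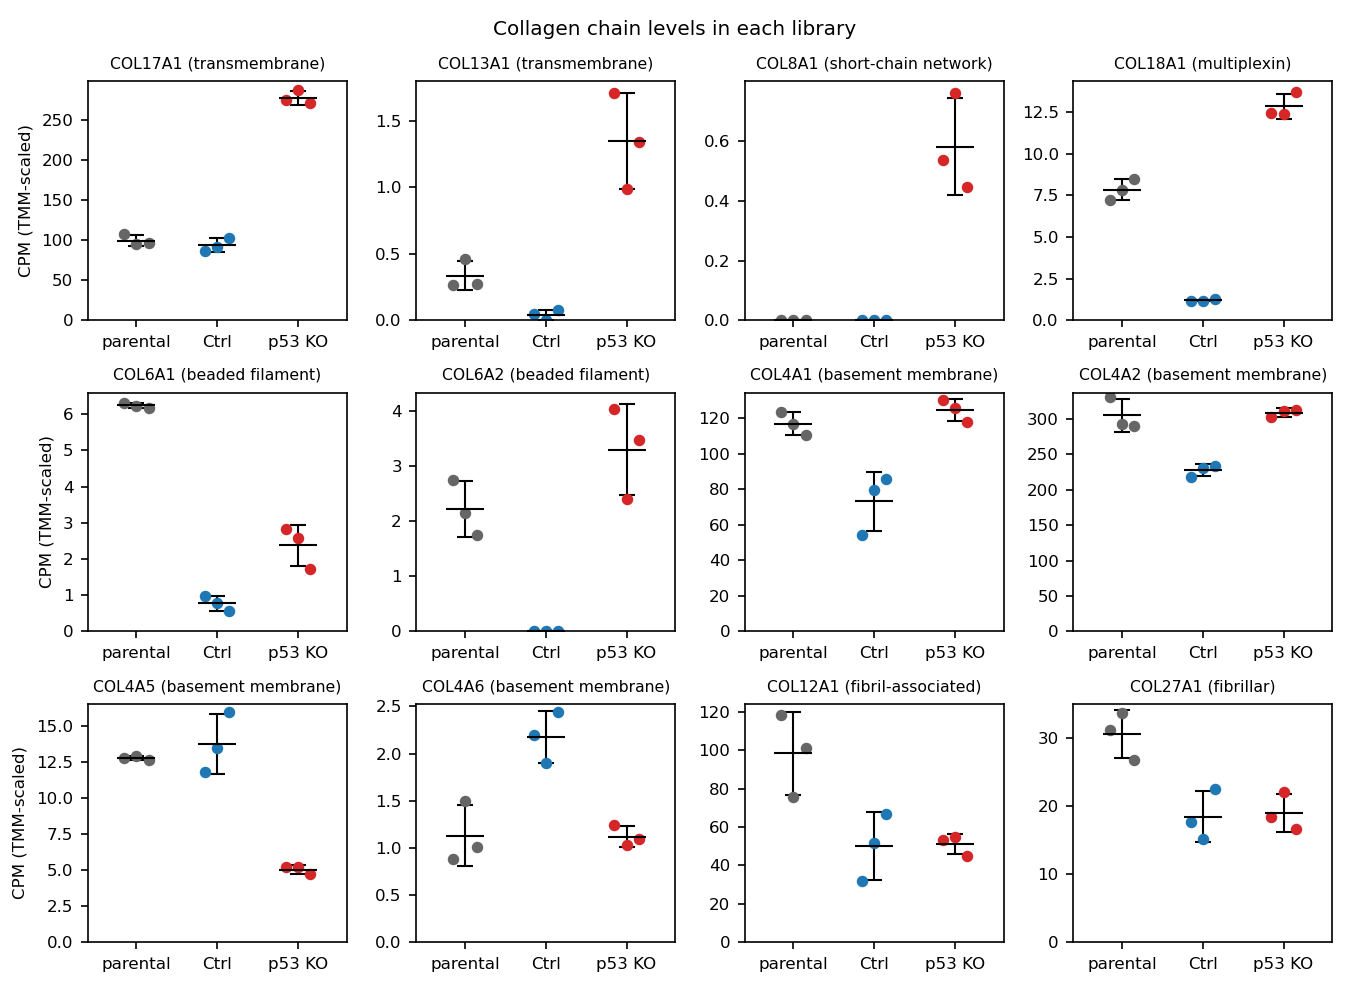
Level in CPM (vertical axis of each panel) of 12 collagen chains in the 3 parental, 3 Ctrl and 3 p53 KO libraries, with 1 point per library and the group mean ± SD as a line with a bar. In the p53 KO libraries COL17A1 is at 271 to 288 CPM and COL4A5 at 4.71 to 5.21, and COL6A2 is at 0 in the Ctrl libraries.

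Of the fibrillar chains tested, 1 of 4 was called lower in p53 KO against parental cells, 0 of 4 against Ctrl cells, and 1 of 4 was lower in Ctrl against parental cells. The chain was COL27A1, a fibrillar collagen of cartilage, in both cases. Over all genes tested, 8.36%, 14.2% and 9.69% were lower in these comparisons, and 4 chains are too few to set the class apart from them. COL27A1 was at 31.2, 33.7 and 26.8 CPM in parental, 17.6, 15.1 and 22.5 in Ctrl and 18.4, 22.0 and 16.6 in p53 KO libraries. The edited groups overlapped and lay below parental, with log2 fold changes of -0.68 for p53 KO (SE 0.15, edgeR adjusted p = 0.0106) and -0.73 for Ctrl (SE 0.15, adjusted p = 0.00849). Between p53 KO and Ctrl cells the value was 0.05 (SE 0.16, edgeR adjusted p = 0.851). COL1A1, which codes for the main chain of type I collagen, was at 4.36, 4.27 and 3.92 CPM in parental, 3.82, 3.23 and 2.71 in Ctrl and 3.52, 2.89 and 2.33 in p53 KO libraries. The p53 KO value against parental cells was -0.50 on the log2 scale (SE 0.17, edgeR adjusted p = 0.0651), and it passed the threshold without the low-count filter (adjusted p = 0.0323), with the replicate number as a block (adjusted p = 0.0471), with those 6 libraries fitted alone (adjusted p = 0.0258), and without p53 KO replicate 1 (adjusted p = 0.0425) or Ctrl replicate 1 (adjusted p = 0.0253) or 3 (adjusted p = 0.0489). COL11A2 and COL5A2 stayed under 1.2 CPM in all libraries and were not called in any comparison.

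Among the fibril-associated chains, COL12A1, which codes for a collagen on the surface of type I fibrils, was the abundant one. COL12A1 was at 118, 75.6 and 101 CPM in parental, 31.9, 51.7 and 66.8 in Ctrl and 53.1, 54.7 and 45.1 in p53 KO libraries. As with COL27A1, the edited groups overlapped and lay below parental. The log2 fold changes were -0.95 in p53 KO (SE 0.23, edgeR adjusted p = 0.0160) and -0.97 in Ctrl (SE 0.23, adjusted p = 0.0153) against parental cells, and 0.02 between p53 KO and Ctrl cells (SE 0.23, adjusted p = 0.958). Both calls were lost without parental replicate 1 (edgeR adjusted p = 0.0747 and 0.0700) or parental replicate 3 (adjusted p = 0.0546 and 0.0518), and that of p53 KO also without p53 KO replicate 3 (adjusted p = 0.0681). COL9A2, a cartilage chain, was at 3.33, 3.85 and 3.41 CPM in parental, 5.66, 4.57 and 3.55 in Ctrl and 2.99, 2.74 and 3.13 in p53 KO libraries. It was lower in p53 KO than in Ctrl cells (log2 fold change -0.63, SE 0.17, edgeR adjusted p = 0.0173), a call lost without p53 KO replicate 1 (adjusted p = 0.0527) or 2 (adjusted p = 0.0701). In Ctrl against parental cells COL9A2 gave 0.36 (SE 0.17, edgeR adjusted p = 0.137), which passed without Ctrl replicate 3 (adjusted p = 0.0262). COL9A3, which joins COL9A2 in type IX collagen, was between 5.49 and 8.52 CPM in all libraries and was not called in any comparison.

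COL7A1, the anchoring fibril chain, was at 1.38, 1.38 and 1.20 CPM in parental, 0.969, 0.667 and 0.572 in Ctrl and 1.51, 2.17 and 1.69 in p53 KO libraries. All Ctrl libraries lay below the others, and p53 KO above parental. COL7A1 was higher in p53 KO than in Ctrl cells (log2 fold change 1.31, SE 0.24, edgeR adjusted p = 0.00172), while p53 KO against parental cells gave 0.43 (SE 0.21, adjusted p = 0.195). Its value in Ctrl against parental cells, -0.88 (SE 0.25, edgeR adjusted p = 0.0315), lost the call when any parental library or Ctrl replicate 2 or 3 was left out (adjusted p = 0.0617 to 0.100).

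COL8A1 and COL16A1, chains with few reads, were higher in p53 KO libraries. COL8A1, a short-chain network collagen of vessel walls and the cornea, had 0 counts in all 6 control libraries and 16, 20 and 9 in p53 KO libraries. This sets it at least 4.73-fold higher against parental (edgeR adjusted p = 0.00228) and at least 4.68-fold higher against Ctrl cells (adjusted p = 0.00118). COL8A1 passed the filter through the p53 KO libraries alone, so these p-values describe the difference and are not a separate test of it. Of 10 tested genes within 1 Mb of COL8A1, 0 were higher and 4 lower in p53 KO against parental cells, where 8.36% of all genes were lower, and 2 were higher and 7 lower against Ctrl cells, where 15% and 14.2% of all genes were. COL16A1, a fibril-associated chain, had 3, 1 and 2 counts in parental, 1, 5 and 2 in Ctrl and 13, 10 and 8 in p53 KO libraries. It did not pass the filter, and in a fit without it over 27464 genes the log2 fold changes were 2.25 against parental (SE 0.65, edgeR adjusted p = 0.00706) and 1.88 against Ctrl cells (SE 0.61, adjusted p = 0.0158). COL24A1, a fibrillar chain, had 4 to 11 counts and was not called in that fit. COL28A1, a chain related to type VI, was between 2.75 and 4.23 CPM and was not called, although -0.36 in p53 KO against Ctrl cells (edgeR adjusted p = 0.0778) passed without Ctrl replicate 1 (adjusted p = 0.0499).

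Per length, COL4A2, COL17A1 and COL4A1 held the first 3 ranks in each group. In parental cells the levels were 15.8 ± 1.20 RPKM for COL4A2, 14.3 ± 0.945 for COL17A1, 7.98 ± 0.437 for COL4A1, 5.21 ± 1.14 for COL12A1 and 2.18 ± 0.251 for COL27A1 (SD, n = 3). In p53 KO cells COL17A1 stood first with 39.8 ± 1.29 RPKM, above COL4A2 with 16.0 ± 0.306 and COL4A1 with 8.50 ± 0.419. In Ctrl cells COL17A1 was at 13.4 ± 1.23 and COL4A2 at 11.8 ± 0.424 RPKM. In parental and in Ctrl cells the means ± SD of these neighbours in the order overlapped, and in p53 KO cells they did not. Lengths came from the exons of GENCODE release 44 and not from the annotation on which reads were counted.

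Summed over all 44 chains, the level was 762, 666 and 675 CPM in parental, 449, 508 and 552 in Ctrl and 827, 847 and 810.3 in p53 KO libraries. The p53 KO libraries were the highest and the Ctrl libraries the lowest. Basement membrane chains made up 53.1% ± 0.813 of this sum in p53 KO, 62.2% ± 1.27 in parental and 63.1% ± 1.58 in Ctrl cells (SD, n = 3). Transmembrane chains, nearly all of it COL17A1, made up 33.8% ± 0.365, 14.3% ± 0.156 and 18.7% ± 0.534 in the same order. Fibril-associated chains made up 7.36%, 15.3% and 12.2% and fibrillar chains 2.86%, 5.22% and 4.69%. These shares are of reads without a correction for length, and a rise of 1 class lowers the share of the others.

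**Figure D4:**
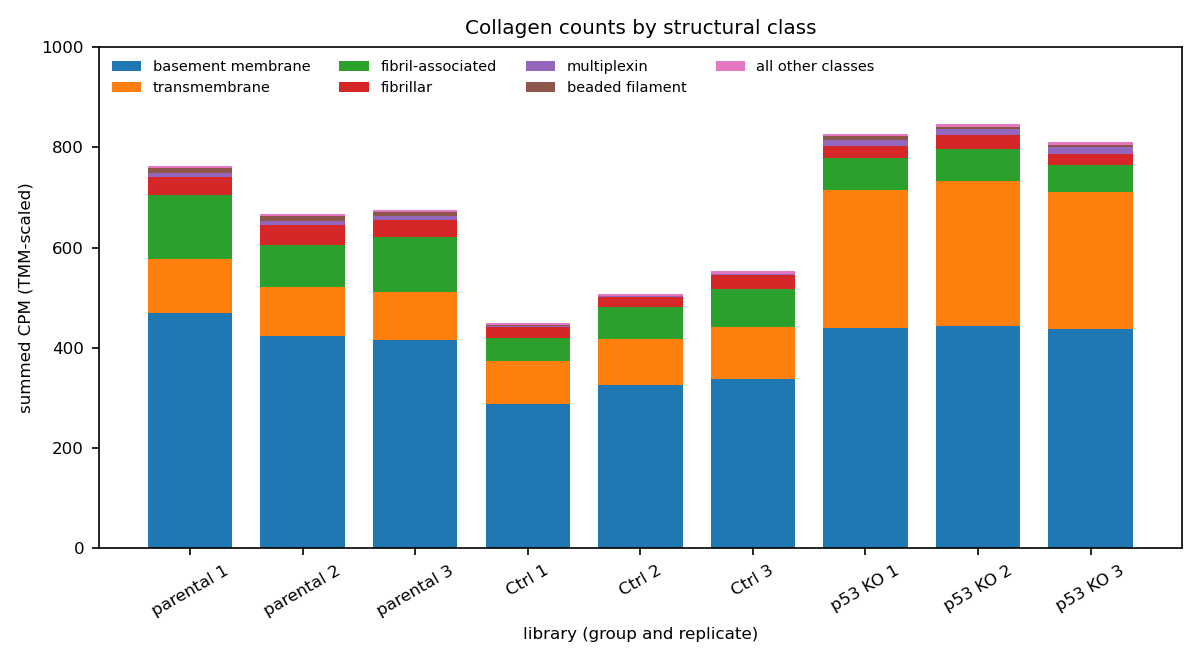
Summed level of all collagen chains in each of the 9 libraries (vertical axis, CPM), with stacked segments for the classes. Totals are 666 to 762 CPM in parental, 449 to 552 in Ctrl and 810.3 to 847 in p53 KO libraries, and the transmembrane segment is larger in the p53 KO libraries.

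Genes that process, receive or accompany collagen chains moved in both directions. Of 30 processing genes 22 were tested, with 5 higher and 2 lower in p53 KO against parental, 7 higher and 2 lower against Ctrl, and 2 higher and 4 lower in Ctrl against parental cells. Over all genes tested, 9.77% were higher and 8.36% lower in the first of these comparisons, 15% and 14.2% in the next and 10.6% and 9.69% in the last. PLOD2, the lysyl hydroxylase that prepares telopeptides for cross-linking, had 288 to 300 counts in parental, 283 to 640 in Ctrl and 0 in each p53 KO library. Set against 3 counts per library, PLOD2 was lower by at least 98.8-fold against parental (edgeR adjusted p = 4.45e-06) and 159-fold against Ctrl cells (adjusted p = 8.39e-07). ADAMTS2, which removes the amino-terminal propeptide of fibrillar chains, rose with log2 fold changes of 2.62 (SE 0.58, edgeR adjusted p = 0.00936) and 2.28 (SE 0.55, adjusted p = 0.00917), from 0 to 4 counts in the control libraries to 14 to 17. PCOLCE2, an enhancer of carboxy-terminal processing, fell by 1.59 on the log2 scale against parental cells (edgeR adjusted p = 6.01e-05). Against Ctrl cells its log2 fold change was -0.91 (edgeR adjusted p = 0.00130). In Ctrl against parental cells it was -0.69 (edgeR adjusted p = 0.00662), so the edited control was also lower than parental cells. SERPINH1, the collagen chaperone HSP47, gave 0.02, -0.07 and 0.09 in the 3 comparisons and was not called.

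Of 10 collagen receptors 6 were tested, with 1 higher and 3 lower in p53 KO against parental, 3 higher and 2 lower against Ctrl, and 3 lower in Ctrl against parental cells, where 18.1%, 29.2% and 20.3% of all genes were called in either direction. MRC2, which takes up collagen for degradation, had 6 to 14 counts in parental, 13 to 17 in Ctrl and 5, 0 and 0 in p53 KO libraries, with log2 fold changes of -2.60 (edgeR adjusted p = 0.0365) and -3.09 (adjusted p = 0.00691). DDR2, a collagen receptor kinase, had few reads, with 8, 10 and 11 counts in parental, 1, 4 and 4 in Ctrl and 12, 10 and 5 in p53 KO libraries. It was higher in p53 KO than in Ctrl cells (1.51, SE 0.45, edgeR adjusted p = 0.0259) and lower in Ctrl than in parental cells (-1.67, SE 0.44, adjusted p = 0.0237). In p53 KO against parental cells DDR2 was not called (-0.16, adjusted p = 0.818).

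Of 19 basement membrane partners 13 were tested, with 2 higher and 2 lower in p53 KO against parental, 2 higher and 5 lower against Ctrl, and 1 higher and 1 lower in Ctrl against parental cells, beside the same 18.1%, 29.2% and 20.3% of all genes. FRAS1, a matrix protein of the epidermal basement membrane, was at least 3.76-fold lower in p53 KO than in Ctrl cells (edgeR adjusted p = 0.00437). Its counts were 2, 6 and 3 in parental, 8, 11 and 15 in Ctrl and 2, 3 and 0 in p53 KO libraries. FRAS1 was also higher in Ctrl than in parental cells (log2 fold change 1.59, SE 0.49, edgeR adjusted p = 0.0417). In p53 KO against parental cells it was not called (edgeR adjusted p = 0.317). All 8 hemidesmosome partners of COL17A1 were tested, with 3 higher and 0 lower against parental and 3 higher and 1 lower against Ctrl cells, where 9.77% and 15% of all genes were higher. Those higher against both were ITGB4, LAMA3 and LAMB3. ITGB4, the integrin chain that binds in the same plaque, had log2 fold changes of 0.22 (SE 0.06, edgeR adjusted p = 0.0372) and 0.31 (SE 0.06, adjusted p = 0.00425), smaller than those of COL17A1. LAMA3 and LAMB3, chains of laminin-332, gave 0.59 and 0.46 against parental and 1.20 and 0.39 against Ctrl cells. In Ctrl against parental cells 1 of the 8 partners was higher and 1 lower, where 20.3% of all genes were called. The lower one was LAMA3 (log2 fold change -0.60, SE 0.13, edgeR adjusted p = 0.00768), so its value against Ctrl cells includes a fall in Ctrl cells.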

How the data were processed

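Read pairs of 75 bp came from strand-specific poly(A) libraries. The authors aligned them to GRCh38 with STAR 2.5.1b, counted them on genes of Ensembl release 85 with featureCounts and deposited raw counts of 58051 genes in 9 libraries. The strand setting of the counting was not given in the sources used here.

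Groups came from the labels. In R 4.3.3, edgeR 4.0.16 (TMM, filterByExpr with a minimum count of 10) was fitted to all 9 libraries and tested by quasi-likelihood F, with Benjamini-Hochberg adjustment over 14513 genes. The procedure was tested on simulated data. Groups with at most 3 counts in each library gave fold changes as bounds. CPM are counts per 1000000 counts of the TMM-scaled library size. Standard errors (SE) were derived from the quasi-likelihood F and so include the spread between libraries. Alternatives were DESeq2 1.42.0, its size factors, other filters, glmTreat, a replicate block, the compared groups alone and leaving out each library. Positions came from GENCODE release 44 and promoters from RefSeq GRCh38.p14, and figures from matplotlib 3.10.9.

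All collagen chains tested were named, of those not tested the ones above 3 counts, and of the other lists those past a log2 fold change of 1.5 with PLOD2, ITGB4 and SERPINH1. COL1A2, COL4A3, COL4A4, COL6A5, COL6A6, COL23A1, COL25A1, LAMA3, LAMB3, KRT5, KRT14, EGFR, CDH1, ACTA2, YBEY, ADARB1, MCM3AP-AS1 and SLC19A1 were named after their values were seen. The chains, classes and lists were chosen with earlier results of these data known. Same-numbered libraries were checked for shared deviations (r = -0.348 to 0.0409), so numbers were not taken as pairs. Between differently numbered libraries r was -0.222 to 0.395. The highest value was that of p53 KO replicate 3 with Ctrl replicate 1, the libraries with the lowest totals (20597162 and 19783778 counts). Its cause was not tested. The level of the targeted gene is not reported here.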

Additional observations from a re-analysis of the deposited data

Results flagged for a closer look

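COL18A1 moved in opposite directions in the edited groups. Against parental cells it rose in all 3 p53 KO libraries (log2 fold change 0.71, SE 0.10) and fell in all 3 Ctrl libraries (-2.70, SE 0.13), and the test of the difference, p53 KO against Ctrl cells, gave 3.41 (SE 0.13, edgeR adjusted p = 3.00e-08).

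COL13A1 showed the same pattern at low counts. It rose in p53 KO (1.99, SE 0.35) and fell in Ctrl against parental cells, and p53 KO against Ctrl cells gave a fitted log2 fold change of 4.90 (edgeR adjusted p = 6.18e-05). That value depends on how counts at the limit of detection are treated, and the bound is at least 10.8-fold.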

How the results depend on the processing

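Over 56 values of single chains, 784 of 831 refits kept the direction and the side of the threshold, 17 lost a call, 9 gained one and 21 changed sign, 0 of them in a called value. Requiring at least 10 counts in every library left 16 chains, without COL6A2, COL8A1 and COL13A1, which had 0 to 2 counts in each Ctrl library. This filter gave 2 chains higher in p53 KO against parental cells. Past a log2 fold change of 1.5 it gave 0 there, 3 against Ctrl and 2 in Ctrl against parental cells. These counts were lower because the filter takes out chains that differ by being near 0 in a group. A test against 1.5 (glmTreat) left 0 chains against parental cells. Leaving out each library in turn gave 0 to 2 chains higher in Ctrl against parental cells and 2 to 4 past 1.5 in p53 KO against parental cells. The 0 came without parental replicate 1 or 3 and the 2 without Ctrl replicate 3, and the 4 came without parental replicate 1, which added COL17A1 (1.53) and COL16A1 (2.59, not tested with the filter on all 9 libraries). For the other counts the ranges were 4 to 5 higher and 3 to 5 lower against parental, 9 to 10 higher, 2 to 4 lower and 6 to 9 past 1.5 against Ctrl, and 7 to 9 lower and 3 to 4 past 1.5 in Ctrl against parental cells.

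The values that changed sign were small and not called. Leaving out each library in turn, p53 KO against parental cells gave -0.36 to 0.034 for COL11A2, -0.18 to 0.25 for COL4A6 and -0.018 to 0.081 for COL4A2. In p53 KO against Ctrl cells the ranges were -0.22 to 0.27 for COL5A2, -0.21 to 0.27 for COL12A1, -0.083 to 0.22 for COL27A1 and -0.19 to 0.078 for COL9A3. In Ctrl against parental cells they were -0.074 to 0.27 for COL11A2 and -0.0074 to 0.20 for COL4A5. COL5A2 was also at -9.98e-05 with DESeq2's size factors, -0.00180 with at least 10 counts and -0.00312 with the groups compared alone. The causes were not tested.

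The replicate number as a block gave 4 chains higher and 5 lower in p53 KO against parental, 9 and 3 against Ctrl, and 1 and 8 in Ctrl against parental cells. It added COL1A1 (adjusted p = 0.0471) to the chains lower in p53 KO against parental cells and removed COL7A1 (adjusted p = 0.0625) from those lower in Ctrl cells. Libraries share only a number here. DESeq2 left each chain on the same side of the threshold. Depth limits the chains with few reads, COL8A1, COL13A1 and COL16A1. Ctrl replicate 1 differed most from its group. Chi-square per degree of freedom, a measure of difference between libraries, was 39.6 and 52 for its pairs and 5.36 to 16.5 elsewhere within groups. Without this library, 4944 genes in place of 2631 were called between p53 KO and parental cells. The numbers were 5162 in place of 4240 between p53 KO and Ctrl, and 3054 in place of 2943 between the controls. It also held the lowest Ctrl levels of COL4A1 (54.3 CPM) and COL12A1 (31.9 CPM).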
